A study of Mus musculus with 4 samples.

Results

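The 40 genes described here encode the contractile machinery of striated muscle and the factors that switch it on. They were measured in otocysts, the epithelial vesicles that form the inner ear, of mouse embryos at E10.5. The genes were chosen by name: every non-control probe of the array whose gene name was one of the 40 was taken, which gave 58 of 39429 probes. The names were picked with the mutant and control values of these arrays known, so those values, and the counts of calls made from them, are a description. No p for mutant against control is given for a member or for the list. The Tbx2/3cDKO embryos carried Pax2-cre, a transgene named for a gene of the otic placode, together with Tbx2(fl/fl) and Tbx3(fl/fl), floxed alleles of a pair of T-box repressor genes that cre is meant to remove. Controls were Tbx2(fl/?);Tbx3(fl/?), with at least 1 floxed copy of each gene, an unstated second copy and, by the labels, no cre. All embryos were of the NMRI strain. Each of 4 arrays carried 1 mutant and 1 control RNA in 2 colours, both female on replicates 1 and 2 and both male on replicates 3 and 4, with the dyes swapped within each sex. No label says whether an RNA came from 1 embryo or a pool, so a p-value covers the spread among these RNAs only, and that spread may be technical.

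A sarcomere slides thick filaments of myosin, made of heavy chains with essential and regulatory light chains, along thin filaments of actin and tropomyosin. Troponin, built of subunits C, I and T, senses calcium and frees the thin filament for contraction. Fast skeletal, slow skeletal and heart muscle use different isoforms of most of these proteins, although embryonic muscle of each kind also makes isoforms of the others. In skeletal muscle the helix-loop-helix factors Myf5, Myod1, Myog and Myf6 turn these genes on through E-boxes in their promoters. An otic vesicle is not a contractile tissue, and the tissue around it at this stage is head mesenchyme with vessels and early myoblasts of the head nearby.

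Probes of Tnni1, Myl1 and Neb are shown first, because they say which part of a transcript was read. Tnni1, slow skeletal troponin I, has a probe, A_52_P657360, whose 60 bases map to chr1:137705328-137706203 (mm9, plus strand), a span of 876 bases, so it crosses an intron. The second probe of Myl1, the essential light chain of fast skeletal myosin, spans 4248 bases at chr1:66976853-66981100 (mm9, minus strand). The main Myl1 values below come from the brighter first probe, which is not printed. Neb, nebulin, which sets thin filament length, has a detected probe at chr2:51992837-51992896 and a probe at chr2:52097549-52097608 (both mm9, minus strand) that was never well above background.
Tnni1, A_52_P657360: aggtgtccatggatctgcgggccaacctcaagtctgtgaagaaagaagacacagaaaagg
Myl1, A_52_P273120: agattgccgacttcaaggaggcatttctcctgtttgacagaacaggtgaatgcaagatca
Neb, A_55_P2116978: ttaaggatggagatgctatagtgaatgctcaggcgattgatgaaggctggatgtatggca
Neb, A_55_P2116973: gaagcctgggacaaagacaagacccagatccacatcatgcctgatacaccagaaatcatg
Of the 58 probes, 10 span more of the genome than their own length. All others lie within a stretch of their own length.

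Upstream sequence from RefSeq (GRCm38.p6) was available for 33 of the 40 members, as 37 promoters. The 250 bases before the start are printed for Tnni1, the member with the lowest ratio (the upstream of its 2 listed starts), and for Myl1 and Actc1, cardiac alpha-actin, which had the highest ratios. Capitals mark E-boxes (CANNTG), the T-box core AGGTGT or its complement ACACCT, and the CArG box, the site of serum response factor, searched on both strands.
Tnni1, chr1:135799171-135799420, plus strand: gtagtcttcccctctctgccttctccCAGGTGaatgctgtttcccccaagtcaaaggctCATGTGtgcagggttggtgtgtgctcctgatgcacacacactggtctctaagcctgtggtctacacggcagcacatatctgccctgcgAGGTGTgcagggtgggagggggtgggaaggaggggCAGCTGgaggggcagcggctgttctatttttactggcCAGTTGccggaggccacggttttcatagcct
Myl1, chr1:66945057-66945306, minus strand: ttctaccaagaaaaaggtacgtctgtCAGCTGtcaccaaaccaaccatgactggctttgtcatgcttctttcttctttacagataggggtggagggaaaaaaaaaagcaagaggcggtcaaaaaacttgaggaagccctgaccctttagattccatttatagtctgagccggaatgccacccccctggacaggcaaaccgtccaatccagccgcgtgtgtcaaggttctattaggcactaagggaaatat
Actc1, chr2:114052876-114053125, minus strand: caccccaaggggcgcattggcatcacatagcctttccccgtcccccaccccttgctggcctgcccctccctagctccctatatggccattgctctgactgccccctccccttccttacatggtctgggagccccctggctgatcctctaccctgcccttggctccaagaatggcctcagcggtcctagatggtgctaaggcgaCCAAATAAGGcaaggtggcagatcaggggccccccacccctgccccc
The Tnni1 window holds 4 E-boxes and 1 T-box core, the Myl1 window 1 E-box, and the Actc1 window 1 CArG box and no E-box. An E-box was present in 32 of the 37 member promoters and in 66.2% of all 32851 promoters of this length. The E-box CAGCTG, the form read by myogenic factors, stood in 13 of 37 against 13% of all promoters, and it overlaps the general count. The T-box core was in 5 of 37 member promoters against 11.8% of all, and the CArG box in 5 of 37 against 1.47%. These are letter matches and do not show that a factor binds. Promoters were counted, not genes, and windows of 1 gene can overlap. The 2 Tnni1 windows do so, and the same CAGCTG and T-box core are counted in both.

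Between 58.4% and 63.2% of spots were well above background by the scanner software's flag, all arrays lay on 1 slide, and precision is limited by their number, 4. Tbx3 had a log2 ratio of mutant over control of -3.43 ± 0.16 (SD, n = 4 arrays), Tbx2 one of 0.06 ± 0.23 at a probe that may lie outside the deleted part, and Pax2 one of -0.09 ± 0.17. Levels below are log2 normalized intensities of 1 RNA, and they compare RNAs for a probe, not genes with each other. Ratios are log2 differences of mutant over control on 1 array.

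Most of the sarcomere genes gave a clear signal, and the myogenic factors largely did not. With the best probe of each gene, 22 of the 40 members exceeded background clearly in every mutant and every control RNA, 9 did so in part, and 9 never. The 9 never detected were the regulatory light chain Myl2, the perinatal heavy chain Myh8, cardiac calsequestrin Casq2, titin (Ttn), muscle creatine kinase (Ckm), the acetylcholine receptor subunit Chrna1, and the factors Myog, Myod1 and Myf5. Myf6 was well above background on 1 of 4 arrays in Tbx2/3cDKO RNA and on 2 of 4 in control RNA. Myog, Myod1 and Myf5 are each printed in 10 spots per array, and over the 4 arrays 2 of 40 Myod1 spots were well above background in mutant RNA and 0 of 40 in control RNA. By the software's weaker flag for a signal that is positive and significant, only Ttn and Myf5 among the members had no array. By that flag Myod1 and Myf6 had a signal on 4 arrays in both genotypes, and Myog on 4 in mutant RNA and 2 in control RNA. The weak detection of the factors other than Myf5 thus rests on the stronger flag.

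**Figure D1:**
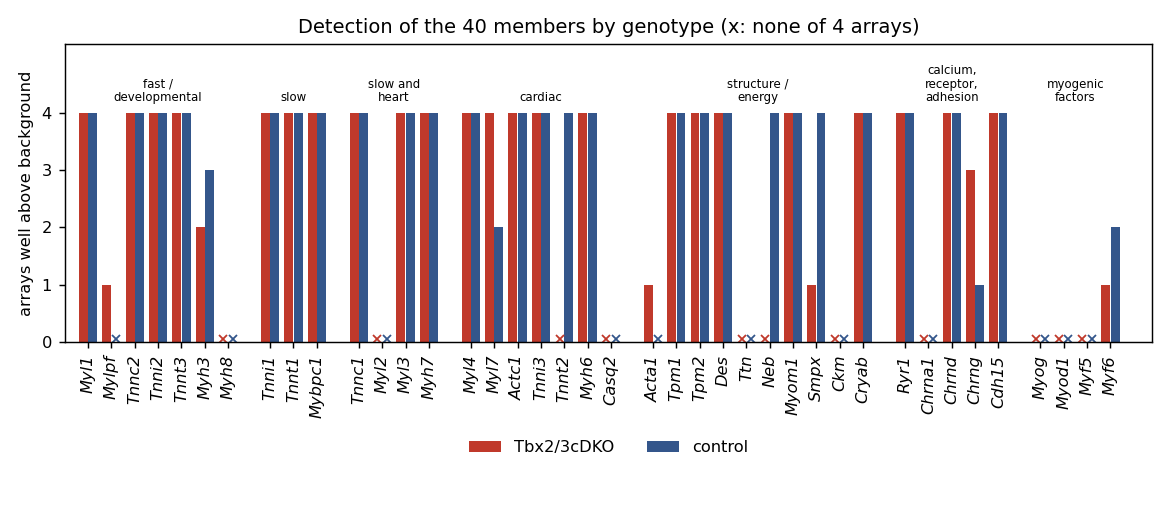
Number of arrays, of 4, on which the best probe of each of the 40 genes was well above background in Tbx2/3cDKO RNA (red bars) and control RNA (blue bars), with a cross where it was on none. Myog, Myod1 and Myf5 have crosses in both genotypes, and Neb and Tnnt2 have full bars in control RNA and crosses in mutant RNA.

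Of the 40 members, 28 passed the filter on dim probes, which asks for a signal well above background on at least 3 arrays in either genotype. Counted by a limma adjusted p under 0.05, 11 of these were higher and 6 lower in Tbx2/3cDKO, and 11 were neither. Among all 18427 genes tested, 13.5% were higher and 10.1% lower. Nothing is read from the members' share, because this contrast was known when they were chosen. Smpx, Neb, Tnnt2 and Myh3 passed the filter through their control RNA alone, and Myl7 and Chrng through their mutant RNA alone, so the filter itself favoured a difference in them. The median log2 ratio of the 28 was 0.11, against 0.004 for all genes tested, and the single members ranged from -2.08 to 2.06. Levels of the 4 mutant and the 4 control RNAs did not overlap for 13 of the 28, and 23.3% of all genes showed the same. Without replicate 1, 7 members were called higher, and counts over all genes with an array left out are given with the processing. When a clear signal was asked of every RNA, 3 of 22 members were called lower, beside 1689 of 17257 genes. Neb, Smpx and Tnnt2 are then not tested. Fewer cells of a type and less RNA per cell cannot be told apart in such bulk RNA.

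**Figure D2:**
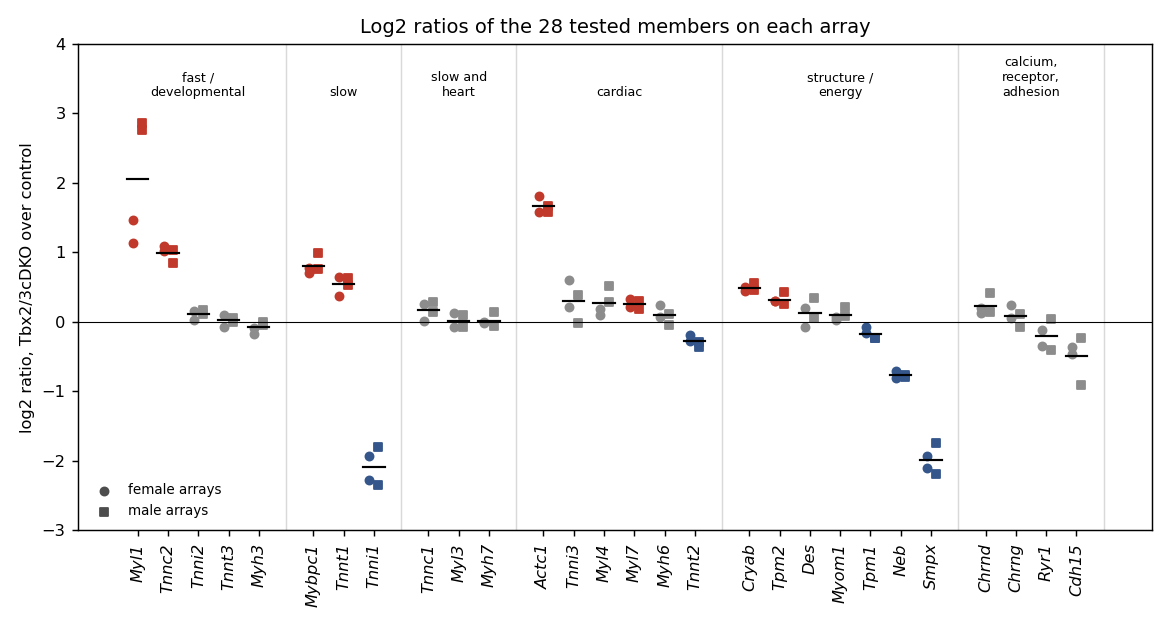
Log2 ratio of Tbx2/3cDKO over control on each array for the 28 genes that passed the filter, grouped by isoform class. Circles are female and squares male arrays, black bars are means of 4 arrays, and colour marks genes whose 4 mutant levels all lie above (red) or below (blue) the 4 control levels, with grey for overlap. Myl1 and Actc1 lie highest, at means of 2.06 and 1.66, and Tnni1 and Smpx lowest, at -2.08 and -1.99.

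Among the fast skeletal and developmental isoforms, Myl1 and fast troponin C (Tnnc2) were higher in Tbx2/3cDKO, while the troponin partners of Tnnc2 differed little. Myl1 had levels of 9.92, 10.28, 11.58 and 11.42 in mutant RNA of replicates 1 to 4, against 8.78, 8.81, 8.81 and 8.56 in control RNA. All mutant values lay above all control values, and the male mutant RNAs lay above the female ones. The log2 ratio averaged 2.06 ± 0.88 (SD, n = 4 arrays), a 4.17-fold difference with a wide spread. Its second probe, whose sequence crosses exons, gave ratios of 0.68, 0.77, 1.81 and 1.88, in the same order by sex. Tnnc2, the calcium-binding subunit of fast troponin, had levels of 8.39, 8.55, 8.33 and 8.27 in mutant RNA, against 7.37, 7.45, 7.49 and 7.23 in control RNA. The groups did not overlap, and the ratio of 1.00 ± 0.11 (SD, n = 4 arrays) corresponds to 2.00-fold. With the scanner software's own log ratios it was 1.51.

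Fast troponin I (Tnni2) had levels of 7.22, 7.37, 7.35 and 7.35 in mutant RNA, against 7.19, 7.21, 7.23 and 7.18 in control RNA. Fast troponin T (Tnnt3) had levels of 8.55, 8.55, 8.59 and 8.45 in mutant RNA, against 8.63, 8.45, 8.53 and 8.45 in control RNA. Their ratios were 0.12 ± 0.07 and 0.02 ± 0.08 (SD, n = 4 arrays). The 3 subunits of fast troponin thus had unequal ratios. On each array that of Tnnc2 was 0.84 or more and those of its partners were 0.17 or less. With the scanner software's log ratios Tnni2 averaged 0.25 and Tnnt3 averaged -0.02. Myh3, the embryonic heavy chain, was near background, with ratios between -0.17 and 0.00, and its probe shares 24 bases with one for Myh15. Mylpf, the regulatory light chain of fast muscle, was well above background on 1 mutant array alone and had ratios between -0.15 and 0.10.

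The slow skeletal isoforms moved in opposite directions. Tnni1 had levels of 7.80, 7.69, 7.59 and 7.89 in mutant RNA, against 9.73, 9.96, 9.93 and 9.69 in control RNA. Every mutant RNA lay below every control RNA, and the gene was well above background in all of them. The ratio was -2.08 ± 0.26 (SD, n = 4 arrays), or 4.24-fold lower, for the spliced sequence printed above. Slow troponin T (Tnnt1) had levels of 9.96, 10.27, 10.27 and 10.12 in mutant RNA, against 9.59, 9.63, 9.74 and 9.49 in control RNA. Slow myosin-binding protein C (Mybpc1), which tethers thick filaments, had levels of 11.27, 11.32, 11.45 and 11.51 in mutant RNA, against 10.57, 10.54, 10.69 and 10.51 in control RNA. For both genes the mutant values lay above all control values, with ratios of 0.55 ± 0.12 and 0.81 ± 0.13 (SD, n = 4 arrays). A second Mybpc1 probe gave smaller ratios, from 0.05 to 0.55. Troponin I and troponin T of the same slow complex therefore differed in sign on all 4 arrays.

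**Figure D3:**
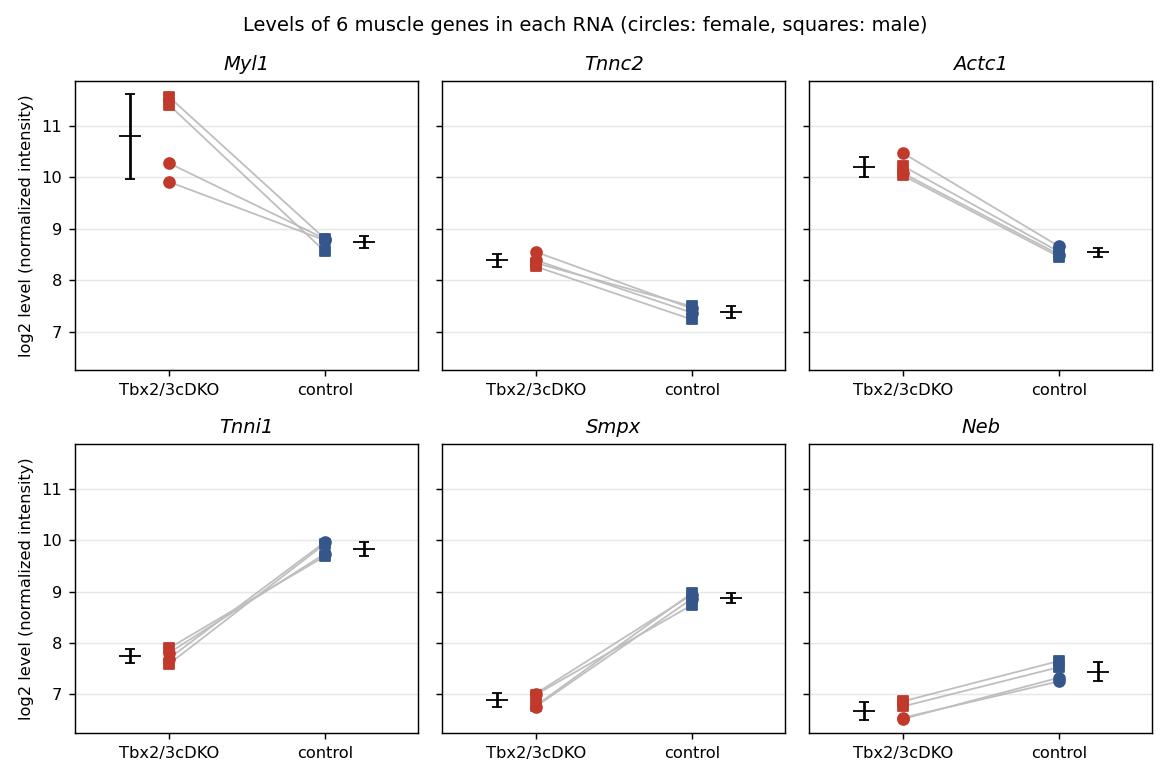
Log2 level of 6 muscle genes in the 4 Tbx2/3cDKO RNAs (red, left) and the 4 control RNAs (blue, right), with grey lines joining the RNAs of an array and black marks for mean ± SD of 4. Myl1, Tnnc2 and Actc1 lie higher in every mutant RNA, Tnni1, Smpx and Neb lower, and the male Myl1 values of 11.58 and 11.42 stand above the female ones of 9.92 and 10.28.

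The isoforms shared by slow skeletal muscle and heart had small ratios. Troponin C of slow and heart muscle (Tnnc1) had levels of 8.05, 7.93, 7.91 and 8.06 in mutant RNA, against 7.79, 7.92, 7.77 and 7.77 in control RNA. The ventricular essential light chain Myl3 had levels of 7.58, 7.30, 7.28 and 7.09 in mutant RNA, against 7.66, 7.17, 7.18 and 7.17 in control RNA. The beta heavy chain Myh7 had levels of 7.67, 7.48, 7.43 and 7.41 in mutant RNA, against 7.68, 7.48, 7.29 and 7.47 in control RNA. The mutant and control RNAs overlapped for all 3 genes. The ratios of the 3 genes averaged between 0.02 and 0.17.

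Among the cardiac isoforms, Actc1 stood apart in size. This actin is also the main sarcomeric actin of embryonic skeletal muscle. Its levels were 10.08, 10.48, 10.04 and 10.22 in mutant RNA, against 8.50, 8.66, 8.46 and 8.55 in control RNA. The groups were far apart, with a ratio of 1.66 ± 0.11 (SD, n = 4 arrays), or 3.16-fold. Cardiac troponin I (Tnni3) had levels of 9.29, 9.09, 9.27 and 9.07 in mutant RNA, against 8.69, 8.88, 8.88 and 9.08 in control RNA. Its ratio was 0.30 ± 0.26 (SD, n = 4 arrays), the groups overlapped, and on replicate 4 the mutant and control RNAs were level.

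The remaining cardiac isoforms had smaller ratios, of which those near background depended on the processing. The atrial essential light chain Myl4, also used in embryonic skeletal muscle, had levels of 7.71, 7.84, 7.77 and 7.84 in mutant RNA, against 7.52, 7.74, 7.48 and 7.31 in control RNA. The atrial regulatory light chain Myl7 had levels of 7.21, 7.21, 7.35 and 7.16 in mutant RNA, against 6.88, 6.99, 7.05 and 6.96 in control RNA, with a clear signal on 2 of 4 arrays there. Their ratios were 0.27 ± 0.18 and 0.26 ± 0.07 (SD, n = 4 arrays), above 0 on every array, and the scanner software's log ratios gave 0.63 for Myl7. The alpha heavy chain Myh6 had levels of 7.75, 7.71, 7.65 and 7.41 in mutant RNA, against 7.69, 7.47, 7.54 and 7.45 in control RNA, with overlap. Cardiac troponin T (Tnnt2), named after its values were seen, had no mutant RNA well above background and all 4 control RNAs so, at least 1.19-fold lower in Tbx2/3cDKO. Its measured log2 ratio was -0.28 here and -1.01 with the scanner software's log ratios.

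In the class of structural, costamere and energy genes, Smpx and Neb were lower and Tpm2 and Cryab higher in Tbx2/3cDKO. Smpx, a small protein of costameres that is also made in the inner ear, had levels of 6.76, 7.01, 6.78 and 6.99 in mutant RNA, against 8.86, 8.94, 8.97 and 8.74 in control RNA. The mutant signal rose clearly over background on 1 of 4 arrays, and the 3.98-fold difference that the ratio of -1.99 ± 0.20 (SD, n = 4 arrays) gives is uncertain in size. With the scanner software's log ratios and with the series table the Smpx ratio was -3.51. A second Smpx probe, dim in both genotypes, gave ratios between -0.54 and -0.28. Neb, named after its values were seen, had ratios of -0.80, -0.71, -0.78 and -0.76. No mutant RNA was well above background and all control RNAs were, which makes it at least 1.64-fold lower, and its measured ratio was -2.52 with the scanner software's log ratios and -2.20 with the series table.

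Tropomyosin 2 (Tpm2) had levels of 12.40, 12.54, 12.41 and 12.39 in mutant RNA, against 12.10, 12.24, 12.16 and 11.96 in control RNA. Cryab, the small heat shock chaperone alpha B-crystallin, had levels of 10.001, 10.20, 10.24 and 10.02 in mutant RNA, against 9.56, 9.70, 9.67 and 9.57 in control RNA. Mutant levels of both lay above all control levels, at ratios of 0.32 ± 0.08 and 0.49 ± 0.06 (SD, n = 4 arrays); the second Tpm2 probe gave 0.34 ± 0.08, and the second Cryab probe gave 0.26 ± 0.17. Tropomyosin 1 (Tpm1), which many cells besides muscle make, had levels of 14.21, 14.18, 14.13 and 14.15 in mutant RNA, against 14.27, 14.34, 14.36 and 14.39 in control RNA. Its ratio was small, at -0.17 ± 0.08 (SD, n = 4 arrays), although the groups did not overlap. The other 4 Tpm1 probes averaged between -0.29 and -0.06, and a pair of them share 46 bases. The M-band protein Myom1 had levels of 7.91, 7.88, 7.99 and 8.15 in mutant RNA, against 7.83, 7.86, 7.90 and 7.94 in control RNA, with overlap. Desmin (Des), an intermediate filament of muscle, had ratios from -0.07 to 0.35, and skeletal alpha-actin (Acta1) was well above background on 1 mutant array alone.

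Genes of calcium release, of the acetylcholine receptor and of myoblast adhesion differed modestly. M-cadherin (Cdh15), which myoblasts and muscle stem cells use to adhere, had levels of 8.88, 8.86, 8.18 and 8.62 in mutant RNA, against 9.34, 9.22, 9.09 and 8.85 in control RNA. Its ratio of -0.49 ± 0.29 (SD, n = 4 arrays) was below 0 on every array, although the groups overlapped. The calcium release channel Ryr1 had levels of 8.37, 8.09, 8.34 and 8.23 in mutant RNA, against 8.49, 8.43, 8.30 and 8.64 in control RNA. Its ratio was -0.21 ± 0.21 (SD, n = 4 arrays), with replicate 3 at 0.04 and the groups overlapping. The receptor subunit Chrnd had levels of 8.37, 8.32, 8.17 and 8.21 in mutant RNA, against 8.16, 8.19, 8.03 and 7.79 in control RNA, at a ratio of 0.23 ± 0.13 (SD, n = 4 arrays) and with overlap. The fetal subunit Chrng had ratios from -0.08 to 0.24.

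The sex of the embryos was not used in choosing the genes, so the difference of the mutant effect between sexes was tested. Myl1 was the member that passed. Its log2 ratio averaged 1.31 on the 2 female arrays and 2.81 on the 2 male arrays, a female minus male difference of -1.50 (limma SE 0.10, adjusted p = 0.0182 over 18427 genes). This corresponds to a mutant effect of 2.47-fold in females and 7.02-fold in males. The control levels of Myl1 were 8.78 and 8.81 in females and 8.81 and 8.56 in males, so the sexes separate in the mutant RNA. Among all genes 2 (0.0109%) were called, and the other, D8Ertd158e, named after its values were seen, had a difference of 1.15. Myl1 had the smallest p of all genes tested. Before adjustment, 2862 of the 18427 genes and 3 of the 28 members had a limma p under 0.05 for this difference. With the scanner software's own log ratios the Myl1 difference was -1.60 at an adjusted p of 0.0748, which ends the call. With 2 arrays of each sex and 1 residual degree of freedom, sex cannot be told apart from whatever else the pairs of arrays share.

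The other 27 members tested gave no difference between sexes past an adjusted p of 0.05. The nearest were Myl4, at 0.14 in females and 0.41 in males (adjusted p = 0.305 by limma), and Tnni3, at 0.40 in females and 0.19 in males (limma adjusted p = 0.316). For Actc1 the female and male ratios were 1.70 and 1.62, and for Tnni1 they were -2.10 and -2.07. The limma SE of the difference was 0.09 for Actc1 and 0.19 for Tnni1.

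**Figure D4:**
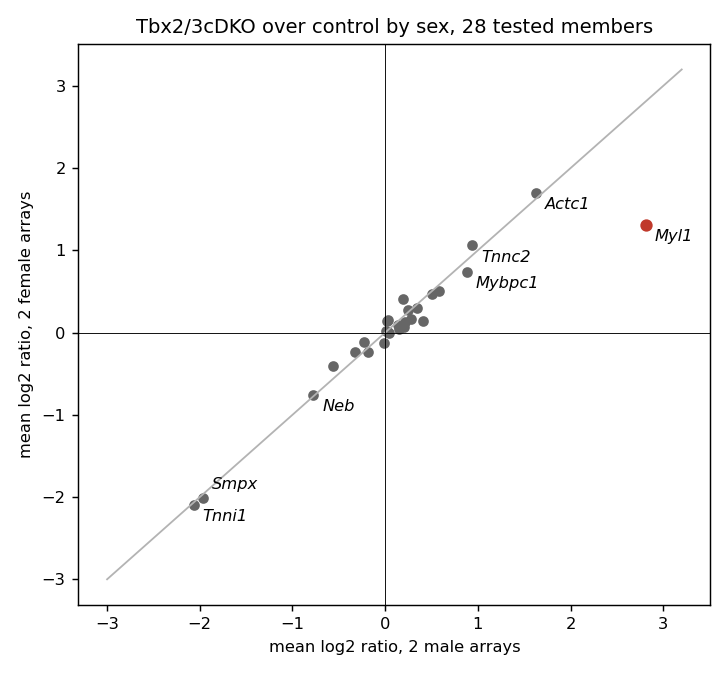
Mean log2 ratio of Tbx2/3cDKO over control on the 2 female arrays (vertical axis) against that on the 2 male arrays (horizontal axis) for the 28 tested genes, with the line of equal values in grey. Myl1 (red), at 1.31 in females and 2.81 in males, lies off the line, while Actc1 at 1.70 and 1.62 and Tnni1 at -2.10 and -2.07 lie on or near it.

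Further genes of striated muscle, listed by function, were counted beside the members. Of 50 other sarcomere, costamere and energy genes, 22 were never well above background and 24 were tested, of which 6 were higher and 4 lower, with a median of -0.05. The never-detected genes included alpha-actinin 2 (Actn2), the cardiac myosin-binding protein Mybpc3 and the adult fast heavy chains Myh1, Myh2 and Myh4. The largest differences among those called were in myoglobin (Mb), at -0.70 ± 0.28 (SD, n = 4 arrays), the small heat shock gene Hspb2, at 0.62 ± 0.09, the muscle enolase Eno3, at -0.62 ± 0.19, and the ubiquitin ligase Trim63, at 0.58 ± 0.10. Hspb2 neighbours Cryab, and both were higher in Tbx2/3cDKO. Hspb2 was well above background on 4 arrays in mutant RNA and 2 in control RNA, so the filter itself favoured a difference in it. Of 23 calcium handling and endplate genes, 13 were tested, with 4 higher and 2 lower. Ryr3, a relative of Ryr1, had no mutant RNA well above background and was at least 1.27-fold lower in Tbx2/3cDKO. The junction protein Jph1 was higher at 0.39 ± 0.16 (SD, n = 4 arrays), and sarcolipin (Sln), an inhibitor of the calcium pump, at 0.30 ± 0.14. Jph1 was well above background on 4 arrays in mutant RNA and 1 in control RNA, so it passed the filter through its mutant RNA alone. The potassium channel Kcnj12 had no control RNA well above background and was at least 1.24-fold higher.

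Of 31 regulators upstream of head and trunk muscle, 27 were tested, with 10 higher and 5 lower, a median of 0.09 and a range from -1.39 to 1.68. Meox2 and Meox1, homeobox genes of somites and mesenchyme, had ratios of 1.68 ± 0.08 and 1.17 ± 0.23 (SD, n = 4 arrays). Pax3, which marks neural crest and the precursors of trunk muscle, had 1.05 ± 0.21. Tbx1, a T-box gene of pharyngeal mesoderm and of the otocyst itself, was lower at -1.39 ± 0.16. Pax7, Tcf21 and Myocd were never well above background. Many of these regulators also act outside muscle, so the list is not a list of muscle cells.

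Markers of other cell types moved on the same arrays. Of 8 erythroid genes all 8 were higher in Tbx2/3cDKO, with summed linear intensities of 1059801 to 1145753 in mutant RNA and 354401 to 557324 in control RNA. All 8 endothelial genes were higher as well, with sums of 21196 to 23022 in mutant RNA and 14170 to 15915 in control RNA. Of 11 genes of periotic mesenchyme, the tissue that surrounds the vesicle, 9 were higher and none lower, with sums of 58490 to 65407 in mutant RNA and 47590 to 51524 in control RNA. Of 12 genes of the otic epithelium, 9 were lower and 1 higher, with sums of 116856 to 133104 in mutant RNA and 217817 to 240735 in control RNA. Bright genes weigh most in such sums. The median log2 ratios were 1.213 for the erythroid, 0.678 for the endothelial, 0.435 for the periotic and -0.423 for the otic epithelial genes. The epithelial genes were all detected, which fits the labelled tissue, and the rise of mesenchymal, vessel and blood genes stands beside the differences of the sarcomere genes. Its part in them was not tested.

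Heart muscle was looked for by a list of cardiac regulators, hormones and other markers. Not all of them are particular to the heart, and Isl1 also stands in the list of head and trunk regulators. Of 13 such genes, 8 were never well above background, among them Nkx2-5, Tbx5, Gata4, Nppa and Nppb. The 4 that were tested held 2 called higher, Gata6 at 0.59 ± 0.18 and Popdc2 at 0.37 ± 0.04 (SD, n = 4 arrays), and the summed intensities of the tested genes were 5713 to 6087 in mutant RNA and 5280 to 5760 in control RNA. Neither these heart markers nor Myog, Myod1 and Myf5, which define skeletal myoblasts, show how many such cells the RNAs held. By the weaker flag Myod1 had a positive and significant signal on 4 arrays in both genotypes, and Myog on 4 in mutant RNA and 2 in control RNA. The part of heart or skeletal muscle cells in the differences of Actc1 and the other members was not tested.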

How the data were processed

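The deposited intensities of each spot and its surroundings came from the scanner software (Agilent Feature Extraction, version 10.7.3.1, per the submitters' processing notes). Its own log10 ratios, red over green, stand in the same deposited files. The authors deposited a series table of signed fold ratios of mutant over control, a score that, turned to log2, lay within 0.001 of the scanner's log2 ratio for 90.8% to 93.3% of probes.

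Mean intensities were corrected with normexp (offset 50) and normalized within arrays by loess in limma 3.58.1 under R 4.3.3. Non-uniform spots, 21 to 32 per array, were left out, and no probe was saturated. Spots of a probe were averaged, and a gene is its brightest tested probe. The log2 ratios entered limma's lmFit and eBayes, with the sign of genotype set by the dye labels and an intercept for dye, and Benjamini-Hochberg adjustment ran over all 18427 genes. A gene dim in every RNA of a genotype has a bound, from channel levels after loess and Aquantile, against the lowest signal well above background on each array. The genotype fit and the fit of the difference between sexes were also run on simulated data with known changes. The alternative fits were not. Coordinates of probes are those of the files (mm9). Promoters are those of a RefSeq table.

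The members and the gene lists were chosen with earlier results of these data known. In each class, members well above background on all 4 arrays in either genotype, up to 5 by intensity, have every value given; of other lists, up to 4 called genes by the size of the ratio are named. Alternatives covered background correction, normalization, the series table, the filter, dye and sex terms, probe averaging, a separate-channel fit and leaving out arrays. Figures were drawn with matplotlib.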

Additional observations from a re-analysis of the deposited data

Results flagged for a closer look

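Myl1 stood out for a difference between sexes: its female minus male difference of the log2 ratio was -1.50, from 1.31 on the 2 female arrays and 2.81 on the 2 male arrays. This was tested as an interaction in limma. The second Myl1 probe averaged 0.72 in females and 1.85 in males. Chrna1 stood out for 1 array that lies apart from the rest: its log2 ratio was 0.076 on replicate 3, against 0.15 to 0.163 on the other 3 arrays. The gene was not well above background on any array, and by this measure about 1 group in 20 stands out by chance.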

How the results depend on the processing

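Of 386 log2 ratios of members recomputed under alternatives, 357 kept their side of the threshold. Of these, 11 changed sign, in 3 genes (Tnnt3, Myl3 and Myh7) whose ratio was at most 0.021 in size. The other ratios were 18 that lost the threshold (in Tnni3, Ryr1, Chrnd, Myl4, Myl7 and Tnnt2), 8 that gained it (in Tnni2, Tnnc1, Tpm1 and Des) and 3 of Myh3 that moved. No called member changed sign. Calls are a description here, since the contrast was known when the members were chosen. The median of the tested members, 0.108, was 0.168 with the scanner software's log ratios and with the series table, and 0.154 over the 22 members well above background in both channels on all arrays, of which 3 were called lower, since Neb, Smpx and Tnnt2 are then not tested. Leaving out an array gave 1028 to 1790 genes lower and 1560 to 2493 higher over all genes, and 4 to 6 members lower and 7 to 13 higher. The lowest counts came without replicate 3, except the 7 members higher, which came without replicate 1, where 1149 genes were lower. The difference between sexes called 0 genes and 0 members with the scanner software's log ratios, 555 genes with median centring, 39 with the mean of a gene's probes and 1 without the dye term. In fits without the dye term, an alternative chosen after seeing the data in which a sex left with 1 array is assumed to vary like the other, leaving out replicate 1, 2, 3 or 4 gave 29, 97, 42 or 3 genes, and the Myl1 difference ranged from -1.67 to -1.34. With the weaker detection flag 2 members were never detected, against 9. Both RNAs of an array share its replicate number, so the ratio on each array is already paired. A term for each sex with the replicate as a block called 7 members lower and 11 higher. Over all 18427 genes that fit called 2644 lower and 3429 higher, against 1870 and 2485 in the main fit. A separate-channel fit with that block called 7 members lower and 13 higher. Nothing is read from these member counts. The causes of these shifts were not tested. Signals near background limit Neb, Tnnt2, Smpx and Myl7.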

Other observations

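Markers of smooth muscle and nonmuscle contractile genes were also measured. Of 12 smooth muscle genes, 9 were tested, 5 were higher in Tbx2/3cDKO and none lower, with a median log2 ratio of 0.38 and summed linear intensities of 21399 to 23122 in mutant RNA and 17505 to 18877 in control RNA. Acta2, smooth muscle actin, had a ratio of 1.25 ± 0.20 (SD, n = 4 arrays). Transgelin (Tagln) had one of 0.62 ± 0.12 and the light chain Myl9 one of 0.38 ± 0.10. Sncg, gamma-synuclein, is not a contractile protein, although it is on the list and among the 5 called higher, at 0.99 ± 0.19. The smooth muscle heavy chain Myh11 and the leiomodin Lmod1 were never well above background. Of 16 nonmuscle actin, myosin and tropomyosin genes, all detected, 3 were higher and 1 lower, with the nonmuscle heavy chain Myh14 at -0.45 ± 0.20 and the light chain Myl12a at 0.31 ± 0.11.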
